A study of Homo sapiens with 4 samples.

Results

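The genes described here are 9 transcription factor genes that mostly act as repressors and that cells switch on quickly in response to signals. They are KLF10, KLF11, KLF9, KLF13, BHLHE40, HES1, HEY1, TGIF1 and TGIF2. They were chosen by symbol, with earlier results of these data known, and all 9 were found among the 23368 symbols of the deposited table. Expression was measured by RNA sequencing of total RNA in HepG2 cells, an established line from a human liver tumour that still expresses many genes of hepatocytes.

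The study has 4 libraries, 1 for each condition. The labels of the first conflict: its title names a PJA1 hairpin together with TGFb1, its treatment is given as water, and the design text lists an untreated control. It is called the library titled shPJA/TGFb1 and was placed by its title. A second library, TGFb1, came from cells treated with TGF-beta1, and the labels do not say whether it carried a control hairpin. All 4 libraries share 1 protocol text, which gives TGF-beta1 at 200 pM for 1 hour and does not say which libraries received it, so the treatment is taken from titles and treatment labels. The shPJA1 library came from cells given, by lentivirus, a short hairpin RNA that targets PJA1, which encodes an E3 ubiquitin ligase of the RING class. The shCtrl library came from cells infected with a control hairpin. With 1 library a condition, no difference between 2 libraries has a replicate check, and the labels do not say whether the libraries came from separate cultures.

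TGF-beta1 binds a receptor kinase pair that phosphorylates SMAD2 and SMAD3, which move to the nucleus with SMAD4 and start transcription of early target genes. Many of those early genes encode repressors, so the first wave of the response also carries its own brakes. KLF10 and KLF11 are also known as TIEG1 and TIEG2, for TGF-beta-inducible early genes. They bind GC-rich DNA through C-terminal zinc fingers and recruit the SIN3A corepressor, as do KLF9 and KLF13. BHLHE40, or DEC1, is a basic helix-loop-helix repressor of E-box genes that responds to hypoxia and damps the circadian clock. HES1 and HEY1 are helix-loop-helix repressors best known as effectors of Notch. TGIF1 and TGIF2 are homeodomain proteins that bind SMAD complexes and hold their targets down.

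The promoter DNA of BHLHE40, KLF11 and HES1 is shown as examples among the genes that had both libraries with TGFb1 in the title above both others, picked after the motif counts were seen because their windows hold pairs of searched motifs. Each run is the 250 bases before a transcription start, 5′ to 3′ on the plus strand, from RefSeq on GRCh38.p14. For BHLHE40 it is chr3:4979187-4979436 and for KLF11 chr2:10043579-10043828, the first of 2 starts listed for that gene. For HES1 it is chr3:194135898-194136147. Capitals mark CACGTG, the E-box, and CAGAC, a SMAD-binding sequence, on either strand in BHLHE40 and KLF11. In HES1 they mark GTGGGAA, which the Notch partner RBPJ binds, and CACNAG, the N-box that HES proteins bind.
BHLHE40: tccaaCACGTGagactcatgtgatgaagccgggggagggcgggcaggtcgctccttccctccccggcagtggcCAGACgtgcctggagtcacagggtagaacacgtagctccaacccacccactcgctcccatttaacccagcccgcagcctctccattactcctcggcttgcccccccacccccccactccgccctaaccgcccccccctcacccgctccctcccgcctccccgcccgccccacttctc
KLF11: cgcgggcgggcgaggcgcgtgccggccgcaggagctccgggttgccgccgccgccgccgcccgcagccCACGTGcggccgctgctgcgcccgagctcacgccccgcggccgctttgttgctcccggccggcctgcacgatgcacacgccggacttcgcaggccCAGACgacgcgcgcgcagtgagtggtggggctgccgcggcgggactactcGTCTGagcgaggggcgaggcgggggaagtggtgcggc
HES1: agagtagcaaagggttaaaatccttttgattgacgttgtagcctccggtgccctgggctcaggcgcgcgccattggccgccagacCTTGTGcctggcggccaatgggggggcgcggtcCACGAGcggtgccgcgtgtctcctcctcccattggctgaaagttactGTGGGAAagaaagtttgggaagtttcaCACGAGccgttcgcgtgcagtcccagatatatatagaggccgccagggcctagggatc

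The other motifs searched were the GC box GGGCGG and the GT box CACCC, which KLF and SP factors bind, and TGTCA, the core that TGIF proteins bind. They lie in 45.0%, 59.9% and 38.9% of the windows described next, CACNAG in 38.0% and GTGGGAA in 6.25%. Motif counts were made on windows of 300 bases, which add the 50 bases after the start, on both strands. The BHLHE40 window held 1 CACGTG and 3 CAGAC, of which 1 CAGAC lies in the run above. The first KLF11 window held 1 CACGTG and 2 CAGAC, and its second window held neither but 7 copies of GGGCGG, against 5 in BHLHE40, 2 in the first KLF11 window and 0 in HES1. Among all 35116 windows of this length in RefSeq, 7.26% held CACGTG, 45.3% held CAGAC and 3.3% held both. The HES1 window held 1 GTGGGAA and 4 CACNAG, and 2.7% of all windows held both. The palindrome GTCTAGAC was found in no member window that was read, against 0.202% of all windows. In all, 15 windows were read, for BHLHE40, HES1, KLF11, KLF13, KLF9, TGIF1 and TGIF2. The windows of KLF9, KLF13, TGIF1 and TGIF2 held 0 CACGTG, and KLF9 and TGIF1 had the same order of libraries as the genes shown. TGIF2, which did not have that order, also had 1 GTGGGAA and 1 CACNAG in its first window. CAGAC is short and common, and a match describes letters only.

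Values are reads per gene divided by 1 size factor per library, called normalized counts here. The 4 libraries held 990698 to 2848665 reads, with the library titled shPJA/TGFb1 the shallowest and TGFb1 the deepest. Intervals are 95% exact intervals for read counts and cover counting error only. The hairpin's target, PJA1, had a normalized count of 9.78 in the library titled shPJA/TGFb1, 38.2 in TGFb1, 15.3 in shPJA1 and 50.3 in shCtrl. The lowest value, in the library labelled water, rests on 6 reads, against 17 in shPJA1. The ratio of shPJA1 over that library was 1.57 (0.589 to 4.85), so counting error does not settle which is lower. The PJA1 ratio of TGFb1 over that library was 3.90 (1.70 to 11.0). SMAD7, an early SMAD target, had 158.1 in the library titled shPJA/TGFb1 and 168.0 in TGFb1, against 69.3 in shPJA1 and 83.0 in shCtrl. Hepatocyte markers were abundant in each library, at a summed normalized count of 33629 to 39451 over 10 genes. Fibroblast markers summed to 3.60 to 8.15 over 5 genes with DCN and LUM at 0, and endothelial markers to 0 to 3.51 over 4 genes with CDH5 and KDR at 0. Leukocyte markers summed to 980 to 1345 over 5 genes, nearly all of it LYZ, with PTPRC and CD3E at 0. Levels of hepatocyte markers also differed between these libraries. Of 9 with a mean of at least 20, the interval of the ratio lay below 1 for 7 in TGFb1 over shCtrl, against 10.6% of all genes at that mean. When the library titled shPJA/TGFb1 was set over shPJA1 it lay above 1 for 4, against 5.9%, and below 1 for 1, against 4.89%. In shPJA1 over shCtrl it lay below 1 for 5, against 6.09%, and above 1 for 1, against 7.14%, and when the library titled shPJA/TGFb1 was set over TGFb1 it lay above 1 for 5, against 8.69%. Intervals of deeply read genes exclude 1 more readily, and these shares were not matched for depth, with APOB at 42871 reads in TGFb1. The part of these marker differences in the results was not tested. In bulk RNA fewer cells of a kind and less RNA per cell cannot be told apart.

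KLF10 was the clearest of the KLF genes. Its normalized count was 511.8 in the library titled shPJA/TGFb1 and 547.9 in TGFb1, against 371.9 in shPJA1 and 372.8 in shCtrl. Both libraries with TGFb1 in the title were above both others, and within each of these pairs the levels were nearly equal. The ratio was 1.47 in TGFb1 over shCtrl (1.29 to 1.67) and 1.38 in the library titled shPJA/TGFb1 over shPJA1 (1.18 to 1.60). These ratios rest on 962 reads in TGFb1 against 319 in shCtrl, and on 314 reads in the library titled shPJA/TGFb1 against 413 in shPJA1.

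KLF11, the closest relative of KLF10, had the same order of libraries. Its normalized count was 177.7 in the library titled shPJA/TGFb1 and 190.2 in TGFb1, against 122.5 in shPJA1 and 150.8 in shCtrl. The ratio was 1.26 in TGFb1 over shCtrl (1.03 to 1.56) and 1.45 in the library titled shPJA/TGFb1 over shPJA1 (1.12 to 1.88). GENCODE 29 places AC104794.4 on the opposite strand of KLF11, and with no strand setting of the counting known from the sources used here, reads of the pair cannot be told apart. Neighbouring levels in the order of the 4 libraries did not differ beyond counting error. The step of the library titled shPJA/TGFb1 over shCtrl, for example, was 1.18 (0.905 to 1.53).

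KLF9, which glucocorticoid and thyroid hormones are known to induce, was low. Its normalized count was 44.0 in the library titled shPJA/TGFb1 and 32.5 in TGFb1, against 22.5 in shPJA1 and 25.7 in shCtrl, from 22 to 57 reads. The library titled shPJA/TGFb1 was 1.96 times shPJA1 (1.09 to 3.51), while TGFb1 over shCtrl was 1.26 with an interval that holds 1 (0.760 to 2.17). KLF13, a related factor known for control of the RANTES gene in lymphocytes, had 132.0 in the library titled shPJA/TGFb1, 114.5 in TGFb1, 103.5 in shPJA1 and 123.9 in shCtrl. Here shCtrl lay above TGFb1, and the groups overlap. The ratio of KLF13 was 0.924 in TGFb1 over shCtrl (0.727 to 1.18) and 1.28 in the library titled shPJA/TGFb1 over shPJA1 (0.947 to 1.71).

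BHLHE40 had the highest normalized count of the 9 genes and, with KLF10, the narrowest intervals. It had 816.6 in the library titled shPJA/TGFb1 and 751.8 in TGFb1, against 553.7 in shPJA1 and 551.7 in shCtrl. The libraries with and without TGFb1 in the title did not overlap, and shPJA1 and shCtrl had nearly the same level. The ratio was 1.36 in TGFb1 over shCtrl (1.23 to 1.52) and 1.47 in the library titled shPJA/TGFb1 over shPJA1 (1.31 to 1.66). In the ordered levels, the step of TGFb1 over shPJA1 was the one whose interval excluded 1, as was the step of the library titled shPJA/TGFb1 over shCtrl for KLF10, at 1.37 (1.17 to 1.61). Such steps are above 1 by construction, since the order was taken from these same values, so they add no support to the pairs. GENCODE 29 places BHLHE40-AS1 on the opposite strand of BHLHE40, so the same limit holds. On the same strand, UBE2CP4 overlaps KLF13, BOD1P1 overlaps TGIF1 and TGIF2-RAB5IF overlaps TGIF2. A strand setting would not separate reads of these overlaps.

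HES1 showed the same split at a lower level. Its normalized count was 60.3 in the library titled shPJA/TGFb1 and 55.8 in TGFb1, against 37.8 in shPJA1 and 37.4 in shCtrl. The libraries did not overlap, but the counts were 37 reads in the library titled shPJA/TGFb1 and 98 in TGFb1, against 42 in shPJA1 and 32 in shCtrl. The ratio was 1.49 in TGFb1 over shCtrl (0.992 to 2.30) and 1.59 in the library titled shPJA/TGFb1 over shPJA1 (0.997 to 2.54), so both intervals just hold 1. In the ordered levels, the step of TGFb1 over shPJA1 was 1.48 (1.02 to 2.17). That step was picked by sorting these same values and differs in both TGFb1 and the hairpin. It therefore does not add to the pairs, whose intervals hold 1.

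HEY1 did not follow HES1. Its normalized count was 31.0 in the library titled shPJA/TGFb1, 33.0 in TGFb1, 22.5 in shPJA1 and 45.6 in shCtrl, from 19 to 58 reads. The highest and the lowest levels were both in libraries without TGFb1 in the title. The ratio was 0.725 in TGFb1 over shCtrl (0.475 to 1.12) and 1.38 in the library titled shPJA/TGFb1 over shPJA1 (0.716 to 2.60).

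TGIF1, a SMAD corepressor that causes holoprosencephaly when mutated, had 140.2 in the library titled shPJA/TGFb1 and 156.0 in TGFb1, against 117.9 in shPJA1 and 125.1 in shCtrl. The libraries did not overlap, yet each step was small. The ratio was 1.25 in TGFb1 over shCtrl (0.994 to 1.58) and 1.19 in the library titled shPJA/TGFb1 over shPJA1 (0.895 to 1.57). TGIF2, its paralogue, had 75.0 in the library titled shPJA/TGFb1, 84.9 in TGFb1, 82.8 in shPJA1 and 97.0 in shCtrl. It was below its partner in both pairs, at 0.875 in TGFb1 over shCtrl (0.664 to 1.16) and 0.905 in the library titled shPJA/TGFb1 over shPJA1 (0.621 to 1.30), and both intervals hold 1. The table lists the symbol TGIF2-C20ORF24 apart from TGIF2, with 1 read at most in any library.

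**Figure D1:**
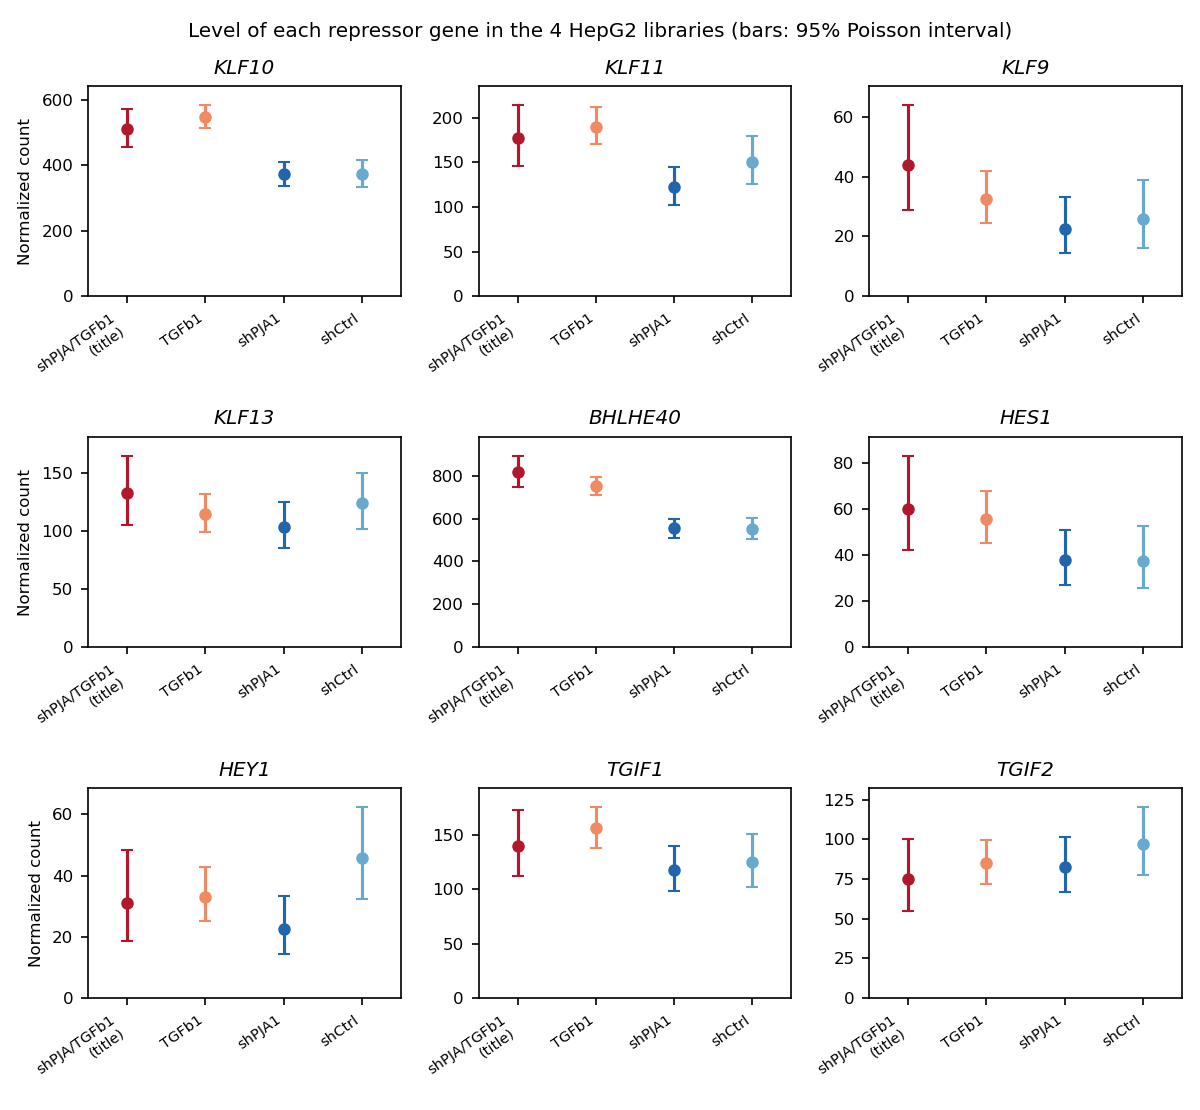
Normalized count (y axis, from 0) of each of the 9 repressor genes in the 4 libraries (x axis), with the 95% Poisson interval of the read count as a bar. KLF10, KLF11, KLF9, BHLHE40, HES1 and TGIF1 have both libraries with TGFb1 in the title above both others, while KLF13, HEY1 and TGIF2 do not.

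Read per kilobase of the longest GENCODE 29 transcript, the mean normalized count over the 4 libraries was 192.5 for BHLHE40 and 123.3 for KLF10. It was 44.5 for TGIF1, 39.7 for KLF11, 30.3 for HES1 and 24.7 for TGIF2. KLF13 had 17.4, HEY1 14.4 and KLF9 6.02 on this per-length scale. BHLHE40 and KLF10 were thus the most abundant of the 9 on this scale, which assumes that the longest transcript is the one expressed.

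Each of the TGFb1 pairs sets a library with TGFb1 in its title over its partner, shCtrl or shPJA1, and these pairs ask how the cells respond to TGF-beta1 without and with the PJA1 hairpin, if the title is right. The labels do not say whether TGFb1 carried a control hairpin. In TGFb1 over shCtrl a difference from TGF-beta1 and one from that hairpin therefore cannot be told apart. All 9 genes had a mean normalized count of at least 20, as did 8575 genes in all. In TGFb1 over shCtrl the interval lay above 1 for KLF10, KLF11 and BHLHE40, 3 of 9, against 13.5% of all genes at that mean. It lay below 1 for 0 of 9, against 10.6%. In the library titled shPJA/TGFb1 over shPJA1 the interval lay above 1 for those 3 and KLF9, 4 of 9, against 5.9% of all genes, and below 1 for 0 of 9, against 4.89%.

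These pairs share no library. An interval above 1 in both was seen for KLF10, KLF11 and BHLHE40, 3 of 9, against 0.746% of the 8575 genes. The 9 genes were chosen with earlier results of these data known, so the shares given here are not independent support. Deeper genes pass more readily, and among the 4007 genes with a mean of at least 100 the share was 1.35%. That mean was reached by KLF10, KLF11, KLF13, BHLHE40 and TGIF1. Both libraries with TGFb1 in the title were above both others for 6 of 9 genes, against 16.4% of the 8575. The same 6 had a ratio above 1 in both pairs, against 23.8%. The median log2 difference over the 9 genes was 0.32 in TGFb1 over shCtrl, and it was 0.46 in the library titled shPJA/TGFb1 over shPJA1, against 0.02 and 0.0036 over the 8575 genes. By size alone, at least 1.5-fold on the scale of log2 with a pseudocount of 1, 0 of 9 were higher in TGFb1 over shCtrl against 3.56% of all genes, and 0 of 9 were lower against 5.13%. In the library titled shPJA/TGFb1 over shPJA1 it was 2 of 9, KLF9 and HES1, against 3.52%, with 0 of 9 lower against 4.33%. The point ratios of KLF10 and BHLHE40 were thus below 1.5-fold, while their counting intervals reached past 1.5 in both pairs.

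**Figure D2:**
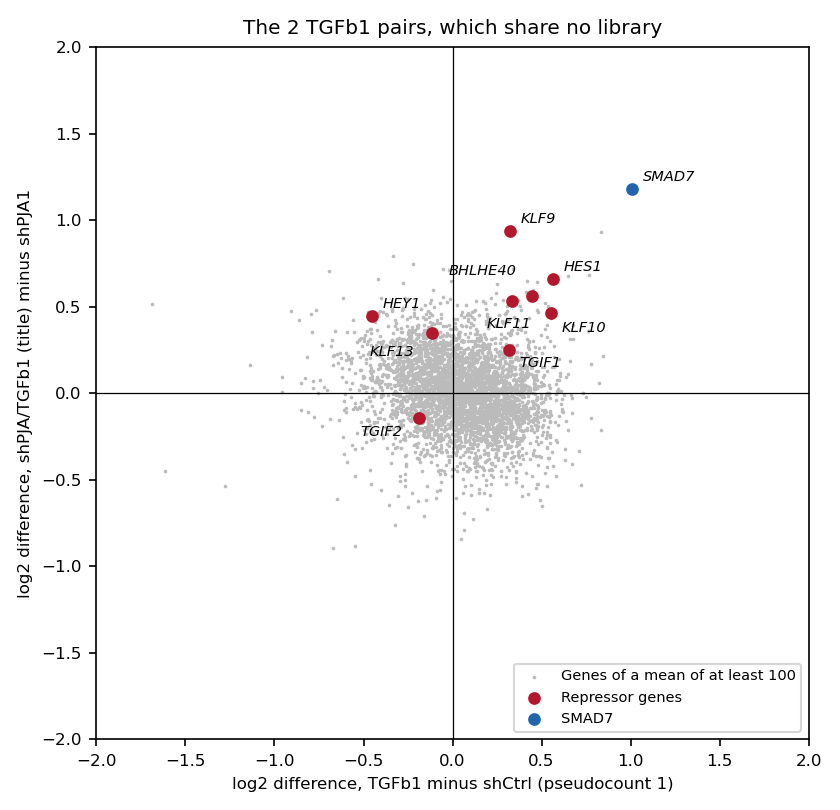
Log2 difference of normalized counts (pseudocount 1) in TGFb1 minus shCtrl (x axis) against the library titled shPJA/TGFb1 minus shPJA1 (y axis), for the 9 repressor genes (red), SMAD7 (blue) and the 4007 genes with a mean of at least 100 (grey). Among the 9, 6 lie at the upper right, HEY1 and KLF13 lie in the upper left and TGIF2 lies in the lower left.

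A limma fit to the log2 values of all 4 libraries set the pair with TGFb1 in the title against the pair without it, with the hairpin as an additive term. This leaves 1 residual degree of freedom, and the spread was shared across the 13387 genes with a mean of at least 1. At an adjusted p under 0.05 it called 0 of the 9 genes, against 0.0149% of all genes that rose and 0.0149% that fell. KLF10 had an estimate of 0.51 ± 0.17 on the log2 scale (SE, adjusted p = 0.7304, limma) and BHLHE40 0.50 ± 0.16 (adjusted p = 0.6796 by limma). HES1 had 0.61 ± 0.28, KLF9 0.63 ± 0.32 and KLF11 0.43 ± 0.20, each with an adjusted p of 0.9996 by limma. The other estimates were 0.28 for TGIF1, 0.12 for KLF13, -0.0047 for HEY1 and -0.17 for TGIF2. Before adjustment 4 of 9, KLF10, KLF11, BHLHE40 and HES1, were under 0.05, against 4.08% of all genes. This share and those of the other fits below also come from genes chosen with earlier results known. SMAD7 rose in the same fit, by 1.09 ± 0.22 (adjusted p = 0.001968 by limma).

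The count models called none of the 9 genes. edgeR's quasi-likelihood test on the recovered reads called 0 of 9, with 5 of 9 under an unadjusted p of 0.05 against 3.77% of all genes. DESeq2 called 0 of 9, with BHLHE40 and KLF10, 2 of 9, under an unadjusted p of 0.05 against 0.157%. Of the alternatives run, 1 gave a call. With each library's trend on transcript GC content removed, limma called 12 genes, BHLHE40 among them, which rose by 0.51 ± 0.11 on the log2 scale (adjusted p = 0.0155, limma), against 0.0373% of all genes that rose and 0.0523% that fell. KLF10 then had 0.51 ± 0.12 (adjusted p = 0.05382 by limma), just short of the threshold, and 5 of 9 were under 0.05 before adjustment against 5.61% of all genes. Over all 14 settings of the fit the adjusted p of BHLHE40 ranged between 0.0155 and 0.9999 and that of KLF10 between 0.05382 and 0.9999 (limma, edgeR and DESeq2). With the hairpin term dropped, limma called 0 of 9, with 5 of 9 under an unadjusted p of 0.05 against 5.07%. The GC trend at the GC content of BHLHE40, 52.0%, was -0.08 in TGFb1 over shCtrl and 0.06 in the library titled shPJA/TGFb1 over shPJA1. With it removed the log2 differences of BHLHE40 were 0.53 and 0.50 in these pairs.

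By the treatment label, the library titled shPJA/TGFb1 would be the water control of TGFb1. In TGFb1 over that library the interval lay above 1 for 0 of 9 genes, against 9.46% of all genes, and below 1 for 0 of 9, against 8.69%, so the members' count is near the background. The log2 difference had the opposite sign to that in TGFb1 over shCtrl for 5 of 9 genes, KLF9, BHLHE40, HES1, HEY1 and TGIF2. The share of all genes that change sign was not counted, so this number is not read as a trait of the 9. The ratio of KLF10 was then 1.07 (0.941 to 1.22) and that of BHLHE40 0.921 (0.830 to 1.02). In the same comparison SMAD7 was at 1.06 (0.842 to 1.35), so its interval held 1 as well. PJA1 was at 3.90 (1.70 to 11.0), with 6 reads in the library labelled water. Which label is right was not tested. The pair with shPJA1 and the fits therefore rest on placing that library by its title, while TGFb1 over shCtrl does not use it.

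The hairpin pairs ask what the PJA1 hairpin does without and with TGF-beta1, if the title is right. Since TGFb1 may lack a control hairpin, targeting of PJA1 and infection itself cannot be told apart in the pair with TGFb1. In shPJA1 over shCtrl the interval lay below 1 for 1 of 9, HEY1, against 6.09% of all genes, and above 1 for 0 of 9, against 7.14%. HEY1 was at 0.494 (0.286 to 0.837), from 25 reads in shPJA1 against 39 in shCtrl. In the library titled shPJA/TGFb1 over TGFb1 HEY1 was at 0.938 (0.527 to 1.60), so the lower level was seen in 1 hairpin pair. In that pair the interval excluded 1 for 0 of 9 genes, against 8.69% of all genes above 1 and 9.46% below. An interval below 1 in both hairpin pairs was found for 0 of 9, against 0.233% of all genes, and above 1 in both for 0 of 9, against 0.327%. At 1.5-fold, HEY1 was lower in shPJA1 than in shCtrl, 1 of 9 against 3.17%, and 0 of 9 were higher against 3.21%. When the library titled shPJA/TGFb1 was set over TGFb1, 0 of 9 were higher against 4.76% and 0 of 9 were lower against 4.33%.

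The hairpin ratios of KLF10, BHLHE40 and HES1 were close to 1. In shPJA1 over shCtrl they were at 0.997 (0.860 to 1.16), 1.00 (0.889 to 1.13) and 1.01 (0.623 to 1.65). Ratios of the library titled shPJA/TGFb1 over TGFb1 were 0.934 (0.820 to 1.06), 1.09 (0.978 to 1.20) and 1.08 (0.719 to 1.59). For BHLHE40 the counting intervals thus end at 1.13-fold without TGFb1 and 1.20-fold with it. They leave out the spread between cultures, so they do not bound a hairpin difference. KLF11 was at 0.812 in shPJA1 over shCtrl (0.634 to 1.04), and at 0.934 in the library titled shPJA/TGFb1 over TGFb1 (0.745 to 1.16). KLF10, KLF11, HEY1, TGIF1 and TGIF2, 5 of 9, had a ratio below 1 in both hairpin pairs, against 21.9% of all genes. TGIF2 was at 0.854 (0.628 to 1.16) and 0.884 (0.621 to 1.24) in these pairs, and TGIF1 at 0.943 and 0.898. In shPJA1 over shCtrl 7 of 9 ratios were below 1, with an interval that excluded 1 for HEY1 alone. The share of all genes with a ratio below 1 in that single pair was not counted. The median log2 difference over the 9 genes was -0.18 in shPJA1 over shCtrl, against 0.0062 over all 8575 genes, and it was -0.09 when the library titled shPJA/TGFb1 was set over TGFb1, against -0.01. The limma fit for the hairpin called 0 of 9, with 0 of 9 at an unadjusted p under 0.05, against 2.97% of all genes. That count was also 0 of 9 by edgeR (2.31%), by DESeq2 (0.0373%), with the TGFb1 term dropped (2.82%) and with the GC trend removed (4.27%). The fit called 1 gene in all, PJA1, which fell (adjusted p = 0.008343 by limma), and that is 0.00747% of all genes. HEY1 had the hairpin estimate farthest from 0 of the 9, with -0.54 ± 0.32 (adjusted p = 0.9995 by limma).

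**Figure D3:**
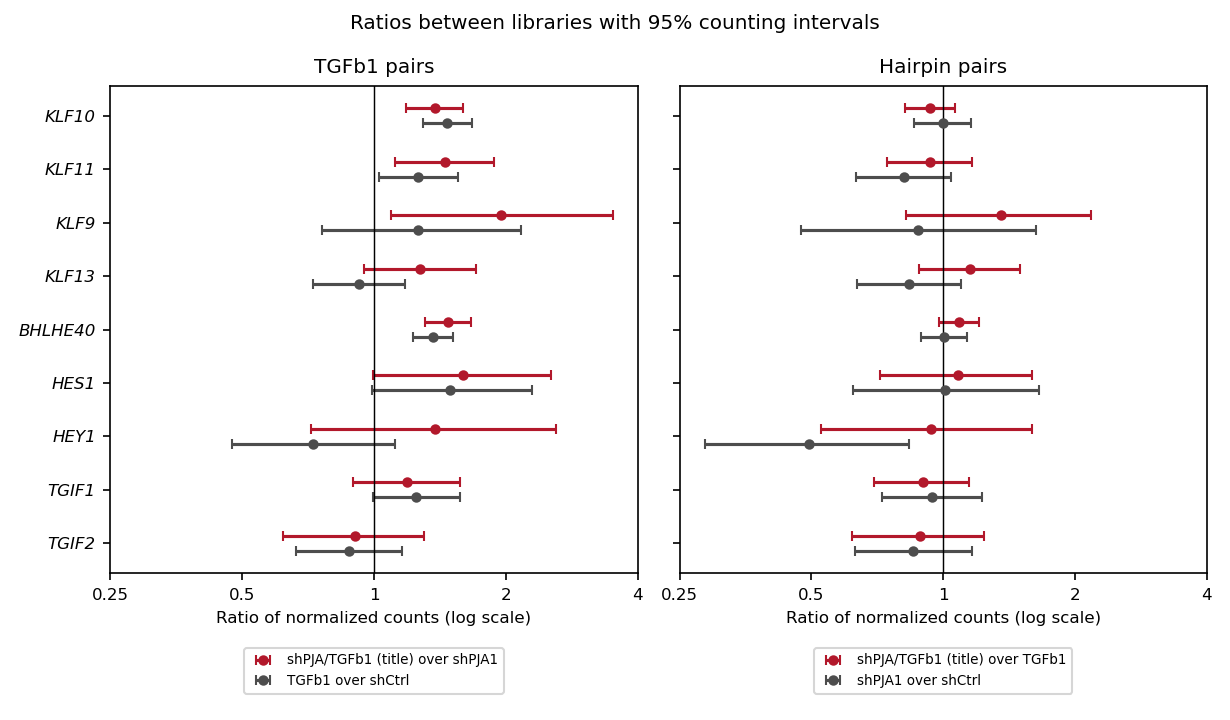
Ratio of normalized counts (x axis, log scale) for the 9 repressor genes in the TGFb1 pairs (left) and in the hairpin pairs (right), with 95% exact counting intervals. On the left the intervals of KLF10, KLF11 and BHLHE40 lie above 1 in both pairs, and on the right HEY1 in shPJA1 over shCtrl is the one interval that excludes 1.

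Whether the hairpin altered the TGFb1 difference was described by the ratio in the library titled shPJA/TGFb1 over shPJA1 divided by the ratio in TGFb1 over shCtrl. Its interval lay above 1 for 0 of 9 genes, against 9.14% of all genes, and below 1 for 0 of 9, against 10.5%, so the members' count is near the background. It was 0.937 for KLF10 (0.768 to 1.14), 1.08 for BHLHE40 (0.921 to 1.27) and 1.15 for KLF11 (0.821 to 1.61). HES1 had 1.07 (0.564 to 2.02) and TGIF1 0.952 (0.659 to 1.38). No residual is left for a test of this quantity, and it too depends on whether TGFb1 carried a control hairpin.

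Lists of related genes around the 9 genes were read in the same way, over their members with a mean of at least 20. Early TGF-beta responders had 15 of 16 with a limma estimate above 0 and a median of 0.46, against 52.4% of all genes and a median of 0.01. In both TGFb1 pairs the genes with an interval above 1 included SMAD7, CTGF, CYR61, GADD45B and SGK1. CTGF, a matricellular protein gene, had 272.2 in the library titled shPJA/TGFb1 and 231.2 in TGFb1, against 169.3 in shPJA1 and 135.6 in shCtrl. SGK1, a serum- and hormone-induced kinase, had 83.1 in the library titled shPJA/TGFb1 and 66.1 in TGFb1, against 34.2 in shPJA1 and 36.2 in shCtrl. In both genes the libraries with TGFb1 in the title were above both others. SKIL, which encodes the SMAD corepressor SnoN, had a ratio of 1.59 in TGFb1 over shCtrl (1.31 to 1.94), and its ratio in the other pair was 1.14 (0.916 to 1.41). JUN, an AP-1 subunit, did not share this order, with 234.7 in the library titled shPJA/TGFb1 and 272.2 in TGFb1, against 273.7 in shPJA1 and 305.1 in shCtrl. The median limma estimate of the 9 repressor genes was 0.43, and both lists were put together with earlier results of these data known.

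Other KLF and SP factors, 9 of 22 at that mean, had a median limma estimate of 0.11, with 7 of 9 above 0. KLF6, the most abundant and like KLF10 an early response gene in many cells, had 1161 in the library titled shPJA/TGFb1 and 1223 in TGFb1, against 1208 in shPJA1 and 1136 in shCtrl. SP1, a general activator at GC boxes, had 358.6 in the library titled shPJA/TGFb1 and 381.0 in TGFb1, against 352.0 in shPJA1 and 385.7 in shCtrl. SP3 went different ways in the pairs, at 1.44 in TGFb1 over shCtrl (1.26 to 1.66) and 0.806 in the library titled shPJA/TGFb1 over shPJA1 (0.685 to 0.947). None of this list had intervals above 1 in both TGFb1 pairs.

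A general list of corepressors, including SKIL of the early TGF-beta responders, had a median limma estimate of 0.03 over 18 of 21 genes in the table. NCOR1, HDAC1 and RCOR1 were the most abundant. HDAC1, a histone deacetylase of the SIN3A complex, had 267.3 in the library titled shPJA/TGFb1 and 264.8 in TGFb1, against 242.2 in shPJA1 and 257.1 in shCtrl. Other inducible repressors, a list that includes ATF3, BCL6 and MXD1, had a median limma estimate of 0.01 over 17 genes, with 9 above 0. BACH1, a heme-sensing repressor, had 526.5 in the library titled shPJA/TGFb1 and 608.8 in TGFb1, against 517.7 in shPJA1 and 440.6 in shCtrl. The ratio of BACH1 was 1.38 in TGFb1 over shCtrl (1.23 to 1.56) and its levels in the other pair were nearly equal.

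The pathways upstream of HES1, HEY1 and BHLHE40 showed small median differences. The Notch pathway had a median limma estimate of 0.07 over 14 of 29 genes, with 9 above 0. JAG1, the most abundant Notch ligand in the list, had 958.4 in the library titled shPJA/TGFb1 and 1001 in TGFb1, against 859.9 in shPJA1 and 930.4 in shCtrl. Circadian clock genes had a median limma estimate of 0.04 over 15 of 20 genes, with 8 above 0. HLF, a clock-driven bZIP factor, had 725.3 in the library titled shPJA/TGFb1 and 640.1 in TGFb1, against 700.5 in shPJA1 and 791.3 in shCtrl. Of the other HES, HEY and BHLHE genes, 5 of 10 reached a mean of 1 and 0 reached 20, while HES1, HEY1 and BHLHE40 did. At an adjusted p under 0.05, limma and edgeR called 0 genes in the KLF and SP, corepressor, inducible repressor, Notch and clock lists. Under an unadjusted p of 0.05 limma had 1 corepressor, SKIL, 1 other inducible repressor, CSRNP1, and 1 clock gene, NR1D2, named after their values were seen, and 0 in the KLF and SP and Notch lists.

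**Figure D4:**
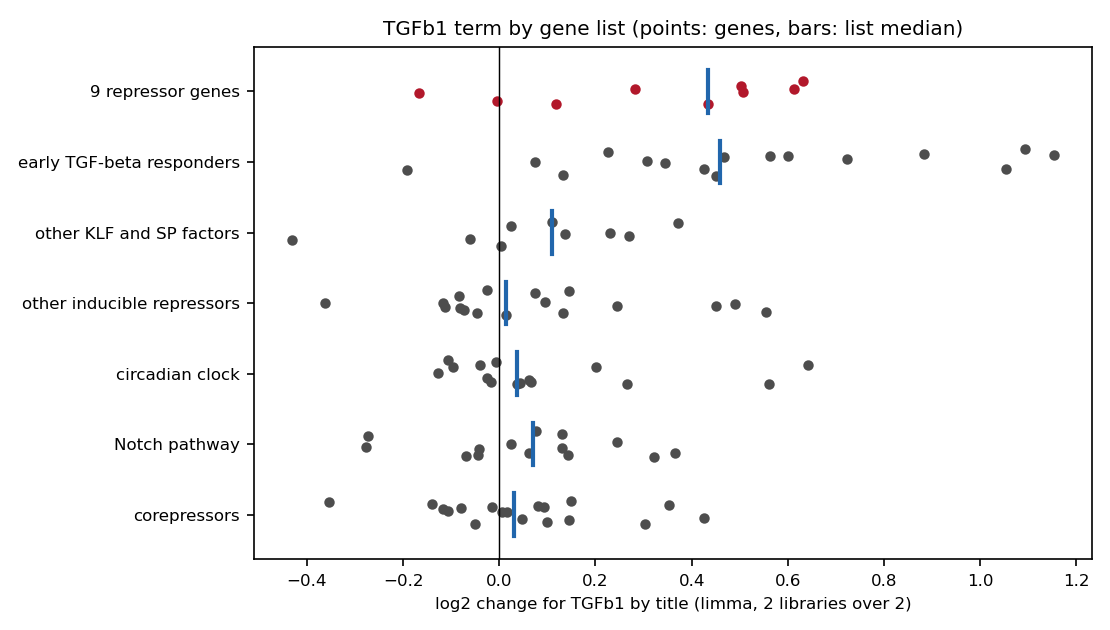
Log2 change for TGFb1 by title from the limma fit (x axis) for genes of each list (y axis) whose mean normalized count is 20 or more, with a blue bar at the list median. The 9 repressor genes have a median of 0.43 and the early TGF-beta responders 0.46, while the other 5 lists lie between 0.01 and 0.11.

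The genes whose profile over the 4 libraries lay nearest to those of KLF10 and BHLHE40 were found by Euclidean distance of centred log2 values among 4007 genes. For KLF10 they were SRSF3 at 0.05, DSC2 at 0.07 and WEE1 at 0.07. SRSF3, an SR splicing factor, had 324.4 in the library titled shPJA/TGFb1 and 348.0 in TGFb1, against 246.7 in shPJA1 and 240.8 in shCtrl. For BHLHE40 they were KLHL21 at 0.06, DNAJB1 at 0.07 and YTHDF2 at 0.08. KLHL21, a cullin adaptor, had 317.8 in the library titled shPJA/TGFb1 and 305.3 in TGFb1, against 227.8 in shPJA1 and 219.7 in shCtrl. Of the other members with a mean of at least 100, BHLHE40 ranked 15 in nearness to KLF10, KLF11 ranked 45, TGIF1 ranked 60 and KLF13 ranked 1453. These distances describe 4 libraries and say nothing of shared control.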

How the data were processed

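RNA of HepG2 cells was sequenced in 4 libraries, 1 per condition, prepared with an Illumina TruSeq kit per the labels' protocols. FastQC, Trimmomatic, TopHat2 2.0.10 and Cufflinks are named in the submitters' processing notes, with no order or settings. No source used here names the genome build, annotation or strand setting. The deposited signal is named as FPKM, but 100% of its values in each library are whole multiples of 1 step (tolerance 1e-06), so it holds reads divided by a size factor. The factors were 0.614 in the library titled shPJA/TGFb1, 1.76 in TGFb1, 1.11 in shPJA1 and 0.856 in shCtrl.

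Ratios of normalized counts carry exact conditional 95% intervals of read counts. A floor of 3 reads corresponds to a normalized count of 4.89 in the library titled shPJA/TGFb1 and 1.71 in TGFb1. limma 3.58.1 (trend, Benjamini-Hochberg) was fitted to log2 of the value plus 1, with edgeR 4.0.16 and DESeq2 1.42.0 on recovered reads as alternatives, in R 4.3.3. In the main limma fit the prior degrees of freedom were infinite, so every gene's spread there came from the shared trend. The lowess GC trend (span 0.3) used the longest GENCODE 29 transcript, found for 98.4% of genes whose mean was 20 or more. The steps were tested on simulated data.

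Libraries were grouped by title. Named genes are the 9 genes, PJA1, SMAD7, the 3 most abundant of each list, genes whose intervals exclude 1 the same way in both TGFb1 or both hairpin pairs, and the 3 nearest profiles to KLF10 and BHLHE40. A gene that this rule names is not reported here. The promoters shown were chosen after the values were seen, and windows were read for 7 of the 9 genes. The genes and lists were chosen with earlier results of these data known. Alternatives were other pseudocounts, filters, scalings, fits and the treatment label.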

Additional observations from a re-analysis of the deposited data

Results flagged for a closer look

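HEY1 differed in direction between the TGFb1 pairs. The library titled shPJA/TGFb1 had 1.38 times the HEY1 level of shPJA1, while HEY1 was lower in TGFb1 than in shCtrl, at 0.725 times, and the first ratio divided by the second was 1.90 (0.864 to 4.15). KLF13 also went opposite ways in the TGFb1 pairs, at 1.28 and 0.924 times, with a ratio of ratios of 1.38 (0.938 to 2.03), and it did so in the hairpin pairs by the same quantity. KLF9 went opposite ways in the hairpin pairs, at 1.36 in the library titled shPJA/TGFb1 over TGFb1 and 0.875 in shPJA1 over shCtrl, with a ratio of ratios of 1.55 (0.697 to 3.44). With 1 library per condition these differences were not tested, and all 3 counting intervals hold 1.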

How the results depend on the processing

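No paired analysis was possible because each condition has 1 library and the labels give no replicate numbers. For the same reason leaving out a library leaves no residual for a test, and gives the single-pair ratios instead. Under scaling by total reads, TMM or removal of the GC trend, KLF10, KLF11 and BHLHE40 were the genes of the 9 with an interval above 1 in both TGFb1 pairs each time, an alternative chosen after seeing the data. By the treatment label, TGFb1 over the library labelled water, 0 of 9 intervals excluded 1. The log2 difference changed sign for 5 of 9 genes, to -0.12 in BHLHE40, -0.43 in KLF9, -0.11 in HES1, 0.09 in HEY1 and 0.18 in TGIF2. Sign changes were not counted over all genes. The number of genes that limma called for TGFb1 was 4, and it was 10 with the hairpin term dropped, 12 with the GC trend removed and 0 with DESeq2 (21 genes at an unadjusted p under 0.05). For the hairpin it was 1, PJA1, and 0 with the TGFb1 term dropped (377 genes at an unadjusted p under 0.05) and 0 with DESeq2 (5 genes). The cause of these shifts was not tested. Genes beyond 1.5-fold numbered 745 in TGFb1 over shCtrl, 673 in the library titled shPJA/TGFb1 over shPJA1, 547 in shPJA1 over shCtrl and 779 in the library titled shPJA/TGFb1 over TGFb1. At a mean of at least 1 they numbered 2871, 3108, 2734 and 3159 in these comparisons, at a mean of at least 100 they numbered 101, 41, 30 and 93, and beyond 2-fold they numbered 100, 93, 44 and 112. Over the 9 genes and both terms, 233 alternative estimates stayed on the same side of the threshold, and 1, BHLHE40 with the GC trend removed, passed it. Of the pair ratios, 221 alternatives stayed within the counting interval, and by the treatment label KLF10, KLF9, HES1 and BHLHE40 moved beyond it. Depth limits HEY1, KLF9 and HES1 most, at 19 to 98 reads.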
